A study of Mus musculus with 24 samples.

Results

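The nuclear genes of the mitochondrial respiratory chain and of ATP synthase were followed in CD8+ T cells before and after they were transferred into mice that they attack. Members were the array probes other than controls whose gene name begins with Nduf, Uqcr, Cox4, Cox5, Cox6, Cox7, Cox8 or Atp5, or is Sdh followed by a, b, c or d, or is Cyc1 or Cycs. The rule found 97 genes with 142 probes, out of 23885 named genes and 39429 gene probes, and used no measured value. It also takes in 11 assembly factors, 8 isoforms known mainly from muscle, testis, lung or other single tissues, and a pseudogene, Atp5c1-ps, which are counted apart from the subunits. Ndufa4 was counted with complex I after its name, although its protein is now placed in complex IV.

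Each of the 24 samples was hybridised to 1 one-colour array. The tested samples were taken 4 days after transplantation from peripheral blood, liver, lung and small intestine (5 arrays each), and the controls were 4 arrays of naive cells of the graft on day 0. All samples were CD45.1 CD8+ T cells of the OT-I line, whose transgenic receptor recognises an ovalbumin peptide, and all were retrieved with magnetic beads against CD45.1. The recipients were female act-mOVA mice, 8 to 16 weeks old, in which the CAG promoter drives membrane-bound ovalbumin. The same age is given for the graft samples. The recipients had been irradiated with 11 Gy in 2 doses and had received bone marrow cells and splenocytes. Graft cells other than the OT-I CD8+ cells, and the recipients, carried CD45.2. Before labelling, 300 pg of RNA per sample was amplified linearly in 2 rounds.

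The respiratory chain carries electrons from NADH through complex I, or from succinate through complex II, to ubiquinone, then through complex III and cytochrome c to oxygen at complex IV. Complexes I, III and IV pump protons across the inner mitochondrial membrane, and ATP synthase, also called complex V, lets them back to make ATP. Most subunits are encoded in the nucleus and a few of the core ones in mitochondrial DNA, except in complex II, which is wholly nuclear. Naive T cells are small and quiescent, and T cells that are activated grow, divide and build up their mitochondria.

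Of the 97 genes, 90 had a tested probe, that is, a named probe well above background on all arrays, or all but 1, of at least 1 group. Of these, 78 were well above background on all 24 arrays and no value was saturated. The other 7 genes (Atp5s, Cox4i2, Cox7b2, Cox8b, Cox8c, Ndufa4l2 and Ndufaf5) were not well above background on any array. A total of 5 tested genes passed only through day 4 groups and none only through the graft. Levels below are log2 processed signals minus the 75th percentile of the array, so that a level of 0 is the signal of the probe at that percentile. Differences are log2 differences from limma's moderated test on 9448 genes, and a gene is called changed at a Benjamini-Hochberg adjusted p under 0.05. No source used here says that each sample came from its own animal, so that the spread behind each p-value may be technical.

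All 9 T cell marker genes (among them Cd3e, Cd8a and Lck) were above background, with summed linear levels of 174.6 to 691.7 on day 4 arrays and 257.9 to 419.1 on graft arrays. Transcripts of other cells went with the groups. The summed level of 9 B cell markers was 2.44 to 18.35 on day 4 arrays and 218.8 to 279.3 on graft arrays, with Pax5 at background throughout. For 8 neutrophil and monocyte markers it was 46.7 to 196.6 on day 4 arrays and 392.7 to 503.8 on graft arrays. Csf3r, at 5.01 to 6.98 on day 4 arrays and 5.975 to 6.86 on graft arrays, kept the day 4 sum up. Of the 7 tested, 6 were called lower, with a median difference of -5.865 over the 7. The sum of 8 macrophage and dendritic cell markers was 124.8 to 178.1 on graft arrays. It was 7.03 to 17.49 in blood, 6.16 to 35.62 in liver, 10.59 to 219.1 in lung and 12.15 to 270.2 in intestine. Lung epithelial markers reached 170.4 on a lung array and intestinal epithelial markers 315.6 on an intestine array. The 6 hepatocyte markers summed to 1.72 to 3.90 on day 4 arrays and 2.23 to 2.71 on graft arrays, with Alb and Ttr at background throughout and Apoa2 called higher (adjusted p = 0.00169, 10 of 20 day 4 arrays and no graft array above background). The 4 erythroid markers summed to 0.51 to 3.15 on day 4 arrays and 2.80 to 101.2 on graft arrays, and Hba-a1 fell (-3.95, adjusted p = 1.4e-05, 3 of 20 day 4 arrays above background). The part of these transcripts in the results below was not tested. The graft arrays alone occupied slide 6, so that day 4 against graft and slide cannot be told apart, and fewer cells of a type and less RNA per cell cannot be told apart either.

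Across the mean of the 4 day 4 sites, 56 of the 90 members rose against the graft and 7 fell (62.2% and 7.78%). Of all 9448 genes, 34.3% rose and 19.1% fell. At an unadjusted p under 0.05 the members numbered 57 and 7. The median difference of the members was 0.69, against 0.23 for all genes. In a separate fit of genes above background on all 24 arrays, 51 of 78 members rose and 3 fell. The shares of all genes in that fit are not given here, so these counts alone are no result about the members. Members rose in every complex. In complex I, 4 of 7 core subunits rose and none fell, and of 30 accessory subunits 17 rose and 4 fell. Of the 17, Ndufa10 entered the test only through day 4 groups, where it is high, with 2 of 4 graft arrays above background. All 4 subunits of complex II rose, 6 of 9 of complex III rose and 1 fell, and the somatic cytochrome c gene rose. In complex IV, 6 of 11 rose and in ATP synthase 11 of 15, with none lower in either by the brightest probe of each gene. A dimmer probe of Cox7a2l, of complex IV, fell by 2.63 (limma on single probes, adjusted p = 2.74e-08, 16 of 20 day 4 arrays above background). The other 2 probes of Cox7a2l gave -0.48 and -0.40, not called. In ATP synthase, dimmer probes of Atp5g1 and Atp5j2 that fell are taken up below. The class medians of the log2 difference were 0.49 for core and 0.67 for accessory subunits of complex I, 1.29 for complex II, 0.72 for complex III, 0.63 for complex IV and 0.67 for ATP synthase.

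The size of the shift depended on how the arrays were scaled. Over 6 scalings the median difference of all genes moved between -0.32 and 0.29, and the members called higher ran from 34 to 66 and those called lower from 5 to 14. The share of all called genes that were higher was 64.3% with the scaling used here, 71.0% with normexp background correction, 50.2% with quantile normalisation as with the deposited table, 40.8% with the 75th percentile of detected probes and 36.5% with their median. Set against the median of all genes under the same scaling, the member median was 0.465 to 0.557 higher. Under the scalings that only shift each array this distance is the same by construction. The deposited table nearly repeats quantile normalisation (lowest correlation of an array 0.99977, on probe-centred values), so that the 6 scalings are not 6 separate checks. Under all 6 scalings 34 members were called higher and 5 lower (37.8% and 5.56%), against 21.1% and 14.3% of all genes. Atp5c1-ps, 4 assembly factors and Cox7a1 were among the 34, and the other 28 were subunits of every complex and cytochrome c.

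**Figure D1:**
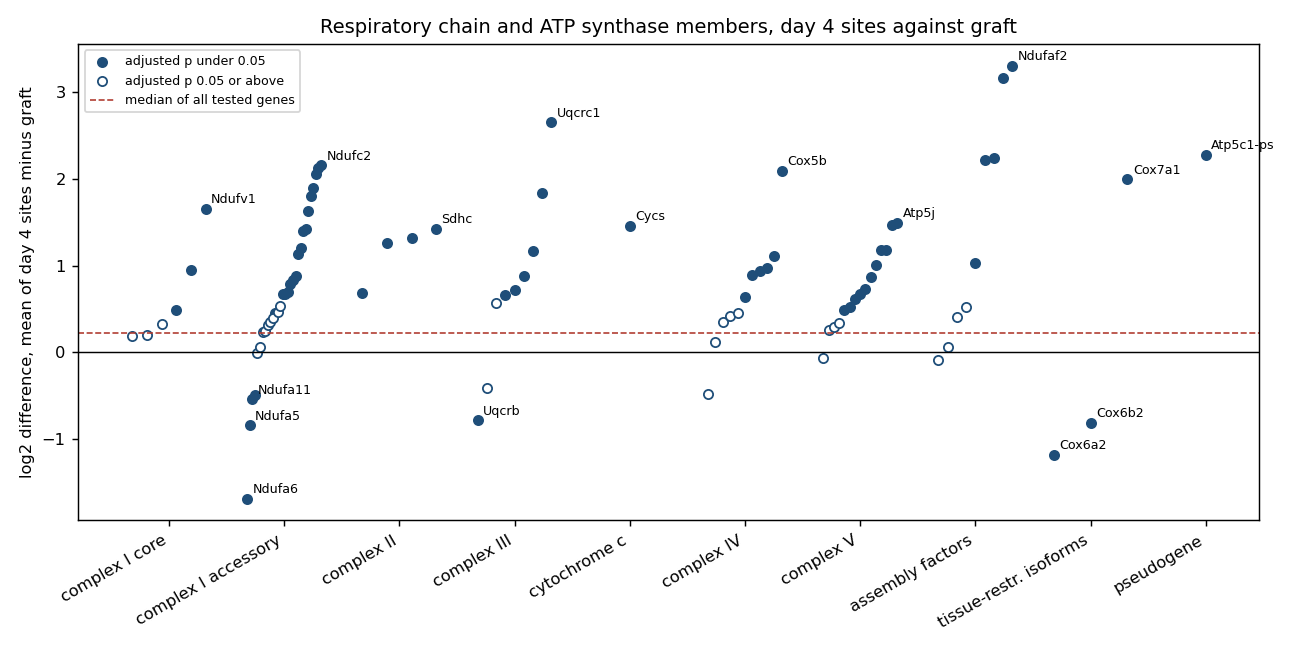
Each point is a member gene, placed by complex on the horizontal axis, and the vertical axis is its log2 difference, mean of the 4 day 4 sites minus graft. Filled points passed an adjusted p under 0.05 and the dashed line is the median of all tested genes, 0.23. Complex II lies wholly above that line, and the lowest subunits are Ndufa6, Ndufa5 and Uqcrb. Ndufaf6 and Sdhaf2 were at background in the graft, so that their points are not fold changes.

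Among the core subunits of complex I, Ndufv1, which binds NADH and the first flavin of the chain, stood at 4.15, 4.93 and 5.86 (lowest, median and highest of the 20 day 4 arrays), against 3.53, 3.12, 3.22 and 3.72 on the 4 graft arrays. The groups did not overlap, and the difference was 1.65 ± 0.27 (SE; adjusted p = 2.26e-05). Ndufv2, an iron-sulfur subunit beside Ndufv1, differed by 0.95 ± 0.26 (adjusted p = 0.00407). That call was lost with quantile normalisation, with the deposited table and with both scalings on detected probes (differences of 0.41 to 0.54). Ndufs1, the largest subunit of the NADH-oxidising arm, had a difference of 0.33 ± 0.27 (adjusted p = 0.297), and its sites are taken up below.

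The accessory subunits of complex I, which surround the catalytic core, held both the members that rose clearly and most of those that fell. Ndufb8, of the membrane arm, stood at 5.02, 5.70 and 6.39 on day 4 arrays and at 3.75, 3.69, 3.39 and 3.82 on graft arrays. All 20 day 4 arrays lay above every graft array, and the difference was 2.05 ± 0.19 (adjusted p = 1.15e-08). Ndufb9 rose by 1.90 ± 0.22 (adjusted p = 1.92e-07) and Ndufc2 by 2.16 ± 0.25 (adjusted p = 2.7e-07), both also parts of the membrane arm and both without overlap. Ndufc2 stood at 3.82, 4.86 and 5.56 on day 4 arrays and between 2.63 and 2.71 on graft arrays.

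Ndufa6, an accessory subunit with an LYR motif that holds an acyl carrier protein in the matrix arm, went the other way. It stood at -0.43, 1.65 and 2.40 on day 4 arrays, of which 19 were above background, and at 3.35, 2.85, 3.20 and 3.37 on graft arrays. All 20 day 4 arrays lay below every graft array, and the gene fell by 1.68 on the log2 scale (SE 0.33, adjusted p = 0.000175). Ndufa5, an accessory subunit of the matrix arm, stood at 4.07, 4.64 and 5.29 on day 4 arrays and at 5.31, 5.43, 5.55 and 5.50 on graft arrays. It fell by 0.84 without overlap (SE 0.16, adjusted p = 0.000115), and its 2 probes gave -0.84 and -1.01. The other accessory subunits called lower, named here after their values were seen, were Ndufa11 (-0.54, adjusted p = 0.00608, 17 of 20 day 4 arrays above background) and Ndufa2 (-0.50, adjusted p = 0.0406). Ndufa2 lost its call without any 1 of the 4 graft arrays (adjusted p between 0.0673 and 0.114), and both lost it with normexp background correction.

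Complex II, the succinate dehydrogenase of the citric acid cycle, rose as a whole. Sdhb, its iron-sulfur subunit, stood at 5.13, 5.81 and 6.49 on day 4 arrays and at 4.52, 4.72, 4.53 and 4.41 on graft arrays, a difference of 1.26 ± 0.20 without overlap (adjusted p = 1.38e-05). Sdhc, a membrane anchor, rose by 1.43 ± 0.23 (adjusted p = 2.41e-05), again with all 20 day 4 arrays above the graft. Sdha, the flavoprotein that oxidises succinate, rose by 1.32 ± 0.30 (adjusted p = 0.000734), although 1 of the 20 day 4 arrays lay below every graft array. Sdhd, the other anchor, rose by 0.69 (adjusted p = 0.000791). Sdha, Sdhb and Sdhc were called under all 6 scalings and Sdhd under 2 of them.

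In complex III, Uqcrc1, the first core protein, had the highest difference of any subunit. It stood at 4.38, 5.06 and 5.86 on day 4 arrays and at 2.55, 2.40, 2.15 and 2.89 on graft arrays. The difference was 2.65 ± 0.22 (adjusted p = 1.98e-09) and stayed between 2.11 and 2.68 under the 6 scalings. Cyc1, cytochrome c1, stood at 3.55, 4.48 and 4.99 on day 4 arrays and at 2.40, 2.58, 2.37 and 2.86 on graft arrays, without overlap. Its difference was 1.84 ± 0.18 (adjusted p = 2.05e-08). Uqcrfs1, the Rieske iron-sulfur protein, rose by 1.17 ± 0.24 (adjusted p = 0.000277).

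Uqcrb, a small subunit that sits against cytochrome b, was the member of complex III that fell. It stood at 4.93, 5.25 and 5.71 on day 4 arrays and at 5.84, 6.00, 6.22 and 6.02 on graft arrays. The groups did not overlap, and the gene fell by 0.78 (SE 0.14, adjusted p = 8.6e-05). Its 3 overlapping probes gave -0.78, -0.83 and -0.92. Their sequences are shown because a fall in 1 of 9 subunits rests on them. Capitals mark the 23 bases that all of them cover (mm9 chr13:67001691-67001713, minus strand), and A_55_P2088218 differs from the others at 1 of these bases.
A_66_P132663: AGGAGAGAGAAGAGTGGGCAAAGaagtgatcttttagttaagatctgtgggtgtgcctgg
A_55_P1965402: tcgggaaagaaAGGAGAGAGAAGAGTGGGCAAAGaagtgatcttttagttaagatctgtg
A_55_P2088218: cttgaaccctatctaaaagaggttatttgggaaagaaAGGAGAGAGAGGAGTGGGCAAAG

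Cycs, cytochrome c, which shuttles electrons between complexes III and IV and triggers caspases when released, stood at 5.94, 6.64 and 6.96 on day 4 arrays and at 4.82, 5.26, 5.20 and 5.25 on graft arrays. All day 4 arrays lay above the graft, by 1.46 ± 0.18 (adjusted p = 4.47e-07). In complex IV, Cox5b, a zinc-binding subunit on the matrix side, stood at 4.36, 5.58 and 6.29 on day 4 arrays and at 3.31, 3.33, 3.62 and 3.42 on graft arrays, a difference of 2.10 ± 0.26 (adjusted p = 6.3e-07). Cox5a, its neighbour in the complex, rose by 0.97 ± 0.22 (adjusted p = 0.000848). Cox6a1 rose by 0.94 ± 0.20 (adjusted p = 0.000356), a call lost when arrays were scaled to the median of detected probes (adjusted p = 0.0509).

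Several subunits of complex IV exist as isoform pairs, a broadly expressed form and one known from a few tissues. Cox4i1 rose by 0.89 (adjusted p = 0.000924), with all 20 day 4 arrays above the graft and a call under 5 of the 6 scalings, and its lung form Cox4i2 was at background on every array. Cox6a2, the heart and muscle form of Cox6a1, differed by -1.18 (adjusted p = 0.00988) and was named after its value was seen. It was above background on 18 of 20 day 4 arrays and on all 4 graft arrays, where it stood at 1.37, 1.58, 1.22 and 1.64. Cox6b2, the testis form, stood at -0.79, -0.49 and -0.09 on day 4 arrays (12 of 20 above background) and at 0.64, 0.31, 0.16 and 0.23 on graft arrays, a difference of -0.81 ± 0.15 (adjusted p = 0.000113). Its counterpart Cox6b1 was above background on 11 of 20 day 4 arrays and 1 graft array and was not called. Cox7a1, the heart and muscle form, rose by 2.00 ± 0.40 (adjusted p = 0.000234). Its graft arrays were spread widely, at 2.35, 3.16, 4.54 and 1.92, against 3.63, 4.87 and 6.32 on day 4 arrays, so that 15 of 20 day 4 arrays lay above every graft array. The highest arrays of Cox7a1, liver 5, lung 4 and intestine 4 (6.32, 6.15 and 6.06), were also the highest of the assembly factor Ndufaf7 (6.37, 6.23 and 6.23). Outside the name rule, they were the highest day 4 arrays of Atpaf2 (3.81, 3.74 and 3.49) and Nrf1 (4.22, 4.10 and 4.01). The same held for Ttc19, Pprc1 and Timmdc1. The reason was not tested. Cox7a2, the broad form, rose by 0.63 (adjusted p = 0.0184), a call kept under 2 of the 6 scalings.

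In ATP synthase the called members spanned the rotor and the stator. Atp5j, coupling factor 6 of the peripheral stalk, stood at 4.60, 5.60 and 6.17 on day 4 arrays and at 3.90, 4.12, 3.94 and 4.10 on graft arrays. Without overlap, it rose by 1.50 ± 0.20 (adjusted p = 1.72e-06). Atp5f1, the b subunit of the same stalk (now Atp5pb), rose by 1.47 ± 0.24 (adjusted p = 2.3e-05), and Atp5c1, the gamma subunit of the turning shaft, by 1.18 ± 0.21 (adjusted p = 6.32e-05). The pseudogene Atp5c1-ps had a difference of 2.28, which is uncertain because it is a near copy of Atp5c1.

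**Figure D2:**
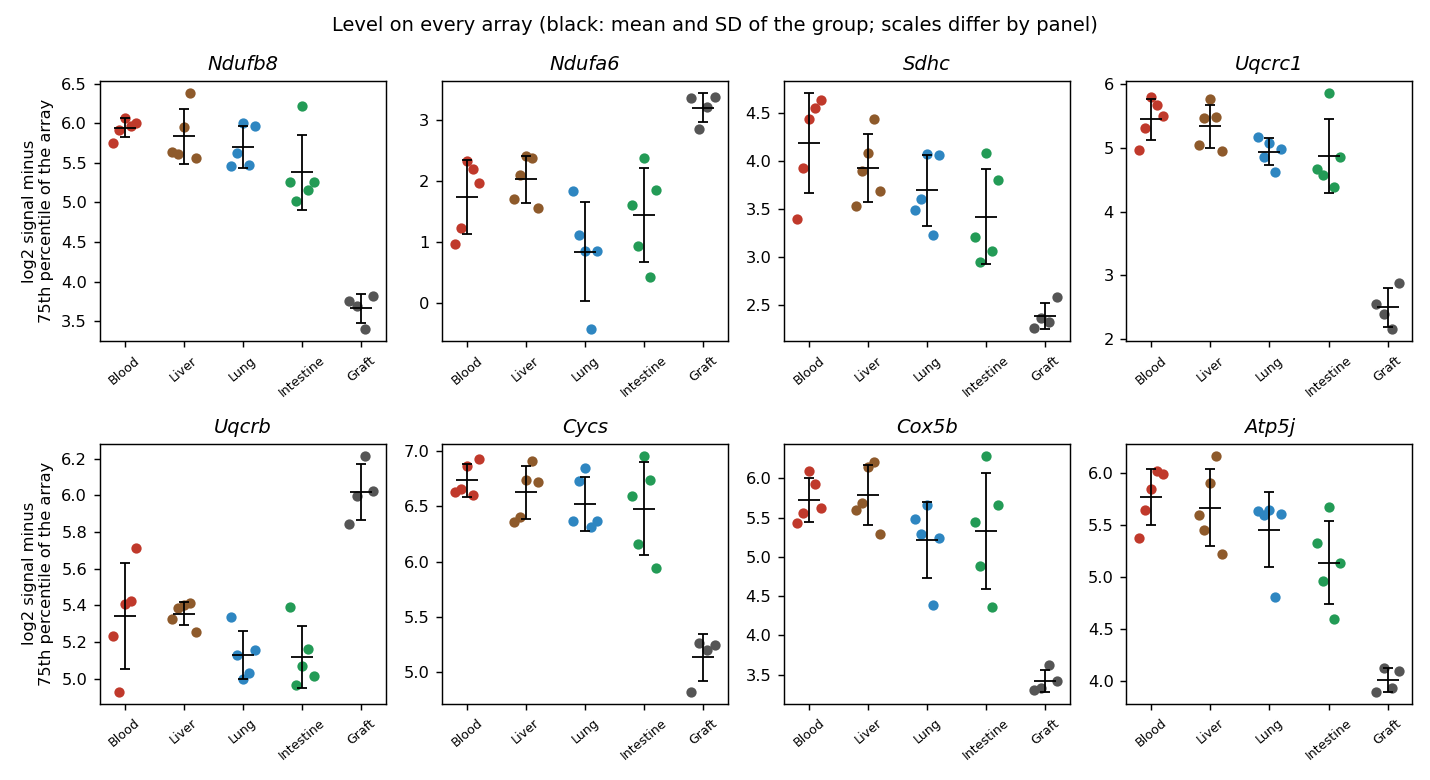
The 8 panels show the normalised log2 level of a member on every array, with the 4 day 4 sites on the left and the graft on the right of each panel, and the group mean and SD in black. Ndufb8, Sdhc, Uqcrc1, Cycs, Cox5b and Atp5j lie above the graft on all 20 day 4 arrays, while Ndufa6 and Uqcrb lie below it on all 20.

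For 27 members more than 1 probe was tested, and for 22 of them all probes had the same sign against the graft. In Atp5g1 and Atp5j2 the probes disagreed and both signs passed the test, and their sequences are shown for that reason. Atp5g1 encodes the c subunit of the rotor ring. Its brighter probe, A_55_P2001683 (mm9 chr11:95934315-95934374, minus strand), gave 0.74 ± 0.19 and its dimmer probe, A_55_P1956064 (mm9 chr11:95930317-95930376, minus strand), gave -0.69 ± 0.26. The brighter one shares a run of at least 20 bases with 3 other probes of the array, of 2 other genes. Atp5j2 encodes the f subunit. Its brighter probe, A_55_P2118906, lies on chromosome 9 by the array's annotation (mm9 chr9:21897298-21897357, plus strand) although the gene is on chromosome 5, and gave 0.87 ± 0.25. Its probe on chromosome 5, A_55_P2081510 (mm9 chr5:145948011-145948070, minus strand), gave -0.61 ± 0.21. With the mean of the probes in place of the brighter one, neither gene was called (adjusted p = 0.93 and 0.617), so the direction of these members is uncertain.
A_55_P2001683: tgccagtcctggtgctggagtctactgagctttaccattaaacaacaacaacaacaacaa
A_55_P1956064: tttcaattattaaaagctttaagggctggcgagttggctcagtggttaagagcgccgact
A_55_P2118906: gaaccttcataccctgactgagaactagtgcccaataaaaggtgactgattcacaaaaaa
A_55_P2081510: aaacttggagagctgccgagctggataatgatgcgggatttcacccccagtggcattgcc

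Of the 11 assembly factors, which build the complexes but do not stay in them, 9 were tested, 5 rose and none fell. Of the 5, Ndufaf1, Ndufaf6 and Sdhaf2 entered the test only through day 4 groups, where they are high, so that their rise is in part fixed by the filter on low signals. Ndufaf7, also among the 5, was highest on the arrays that were highest for Cox7a1. Ndufaf2, which helps complete complex I, had the highest difference of all members that the graft measured. It stood at 2.13, 3.12 and 3.64 on day 4 arrays and at -0.43, -0.29, -0.77 and 0.41 on graft arrays, 3 of which were above background. The difference was 3.31 ± 0.22 (adjusted p = 1.3e-10). Ndufaf6, another complex I factor, was above background on 15 of 20 day 4 arrays and on no graft array, which puts it at least 1.86-fold higher on day 4 (adjusted p = 4.29e-05). Such a bound sets the mean of all day 4 arrays against the lowest signal well above background on each graft array, or the gene's own signal where that is higher. In the same way Sdhaf2, which attaches the flavin to Sdha, was at least 1.31-fold higher (adjusted p = 0.000208), with 11 of 20 day 4 arrays above background.

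Each site was also set against the graft on its own, and the 4 comparisons share the same graft arrays. In blood 55 members rose and 6 fell, where 35.3% and 21.2% of all genes did, and the median was 0.89. In liver 56 rose and 6 fell (34.4% and 16.1% of all genes), with a median of 0.91. In lung 44 rose and 5 fell (25.8% and 11.6% of all genes), with a median of 0.61, and in intestine 37 rose and 7 fell (22.1% and 12.8% of all genes), with a median of 0.54. These counts moved with the scaling. With the 75th percentile of detected probes they were 39 higher and 9 lower in blood, 32 and 8 in liver, 24 and 13 in lung, and 24 and 9 in intestine. Of all 9448 genes, this scaling called 2485 higher and 2809 lower in blood and 1931 and 2836 in liver. In lung it called 1379 and 2518, and in intestine 1426 and 1956. With the median of detected probes the members numbered 33 and 13, 31 and 12, 25 and 14, and 25 and 11. All genes then numbered 2213 and 3441 in blood, 1865 and 3328 in liver, 1534 and 2504 in lung, and 1529 and 2237 in intestine. A total of 34 members rose at all 4 sites (37.8%, against 17.4% of all genes) and 4 fell at all 4 (4.44%, against 7.4%). Those 4 were Ndufa6, Ndufa5, Uqcrb and Cox6b2. At no site were 25 members called, and no member was called in opposite directions at any pair of sites. On 28 members all 20 day 4 arrays lay above every graft array (31.1%, against 10.9% of all genes), and on 4 all lay below (4.44%, against 6.26%).

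**Figure D3:**
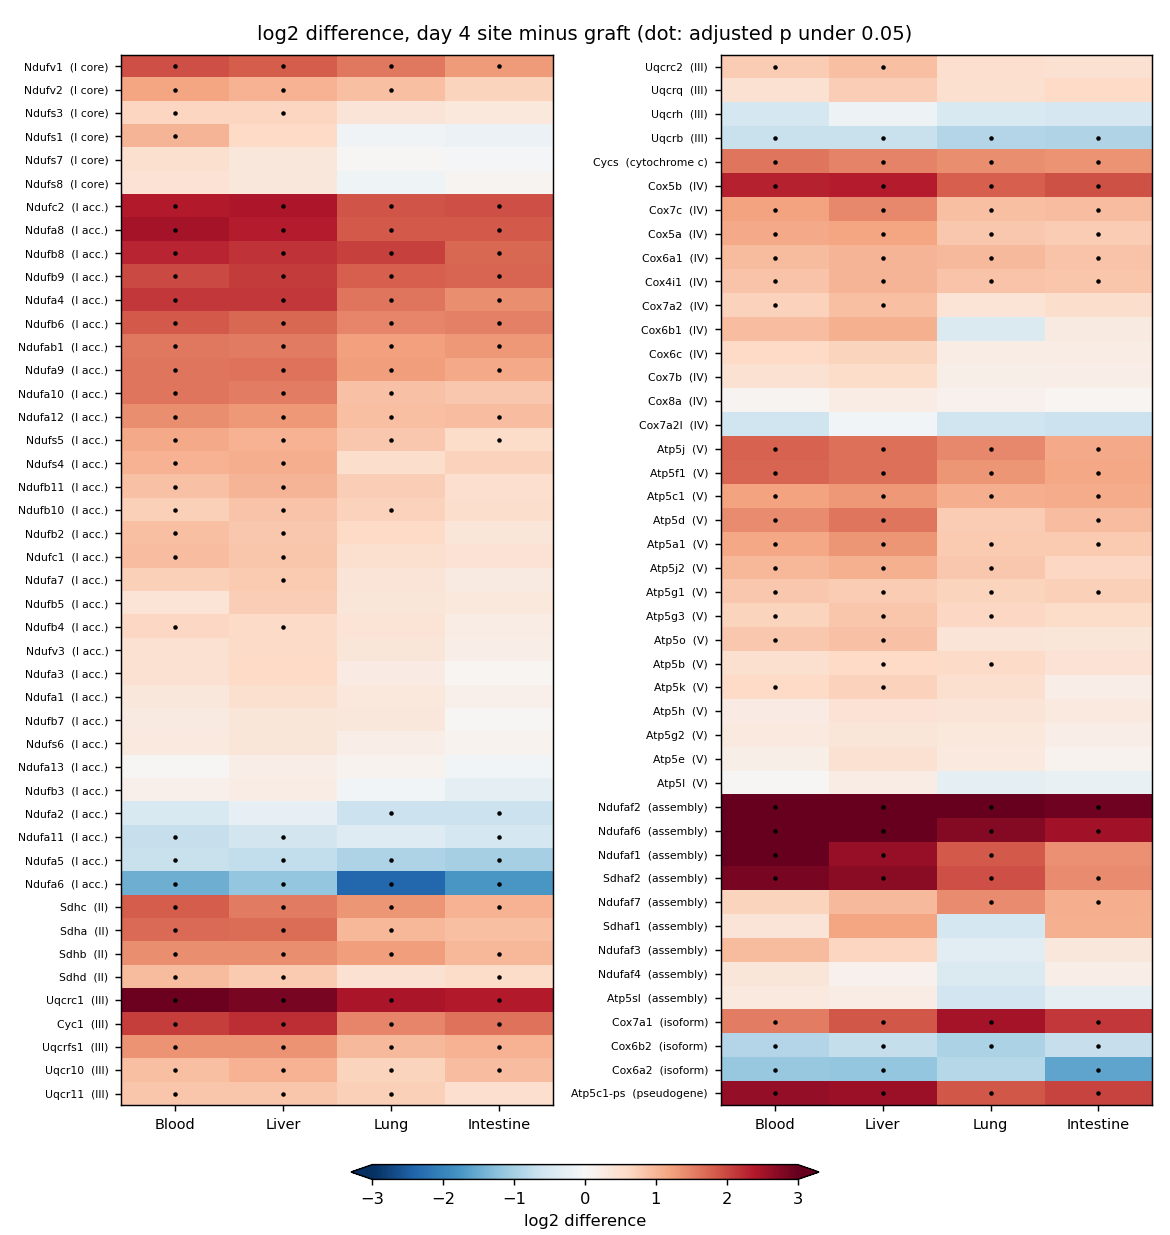
Each row is a tested member, ordered by complex and then by difference, and each column a day 4 site. The colour is the log2 difference of the site minus the graft, capped at 3 in both directions, and a dot marks an adjusted p under 0.05. Ndufc2, Ndufb8, Uqcrc1, Cycs and Cox5b are higher at all 4 sites and Ndufa6, Ndufa5 and Uqcrb lower at all 4, while a block of accessory subunits is called in blood and liver without a dot in lung or intestine.

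A call at blood or liver without one at lung or intestine is not in itself a difference between sites, which was tested directly. Between sites limma called few members. In intestine minus blood 3 members were called, all lower in intestine, where 13.3% of all genes were called and 11.5% were called lower. The count was 5 with the replicate number as a block and 2 with the slide as a fixed block. Ndufaf2 differed by -0.85 (adjusted p = 0.0362), Ndufs1 by -1.19 (adjusted p = 0.02) and Ndufs5, an accessory subunit on the intermembrane side named after its value was seen, by -0.58 (adjusted p = 0.0412). Each was lower in intestine than in blood on 5 of 5 slides. The count rests on single arrays: it was 1 without lung 4 and intestine 4, 23 without intestine 3 and 10 without intestine 5. It fell to 0 when only the groups compared were fitted or when arrays were scaled to the 75th percentile of detected probes. The 9 T cell markers were also all lower in intestine minus blood, none called, with a median of -0.63. On intestine arrays 1 to 5 Cd8b1 stood at 3.10, 1.83, 4.20, 0.84 and 3.98, and the epithelial marker Defa24 at 5.6, 6.7, 2.1, 7.6 and -2.3. The part of these transcripts in the member differences was not tested.

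Ndufs1 stood at 1.72, 1.58, 2.08, 0.63 and 2.50 on the intestine arrays, against 2.69, 2.78, 3.20, 2.82 and 2.96 on the blood arrays. The sites did not overlap. On liver arrays it stood at 2.59, 2.72, 2.45, 2.28 and 2.32, on lung arrays at 2.50, 2.31, 1.06, 1.00 and 2.03 and on graft arrays at 1.58, 1.87, 1.91 and 2.16. Against the graft, Ndufs1 was called in blood, by 1.01, and at no other site. Ndufaf2 stood at 2.53, 2.32, 3.43, 2.13 and 2.84 on intestine arrays, against 3.24, 3.45, 3.58, 3.63 and 3.61 on blood arrays, so that 1 intestine array overlapped with blood.

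For the other 5 pairs of sites limma called 0 members. Liver minus blood called 0.0% of all genes, and at an unadjusted p under 0.05 it had 0 members. The adjusted calls were 1.45% of all genes in lung minus blood, 0.455% in lung minus liver, 0.0% in intestine minus liver and 0.381% in intestine minus lung. At an unadjusted p under 0.05, 14 members were lower in lung minus blood (15.6%, against 19.6% of all genes) and 1 was higher. In lung minus liver 14 were lower (15.6%, against 14.0%), in intestine minus liver 16 were lower (17.8%, against 20%), and neither had a member higher. Intestine minus lung had 2 members higher and 0 lower, where 8.5% of all genes passed in either direction and 5.07% were lower. The share of all genes in either direction was 37.7% in lung minus blood, 17.9% in lung minus liver and 22.8% in intestine minus liver. The shares of members lower in lung minus blood, lung minus liver and intestine minus liver are near those of all genes. They are no result about the members. The median difference of the members was -0.36 in intestine minus blood and -0.40 in intestine minus liver, where all genes had -0.23 and -0.26, and it was 0.06 in liver minus blood, where all genes had 0.07. The array medians in intestine ran from 0.11 to 1.37 above the mean of the graft, with intestine 3 the highest and intestine 4 the lowest of the 20 day 4 arrays. The median SD of a member within a group was 0.54 in intestine, 0.33 in lung, 0.37 in liver, 0.32 in blood and 0.16 in the graft.

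**Figure D4:**
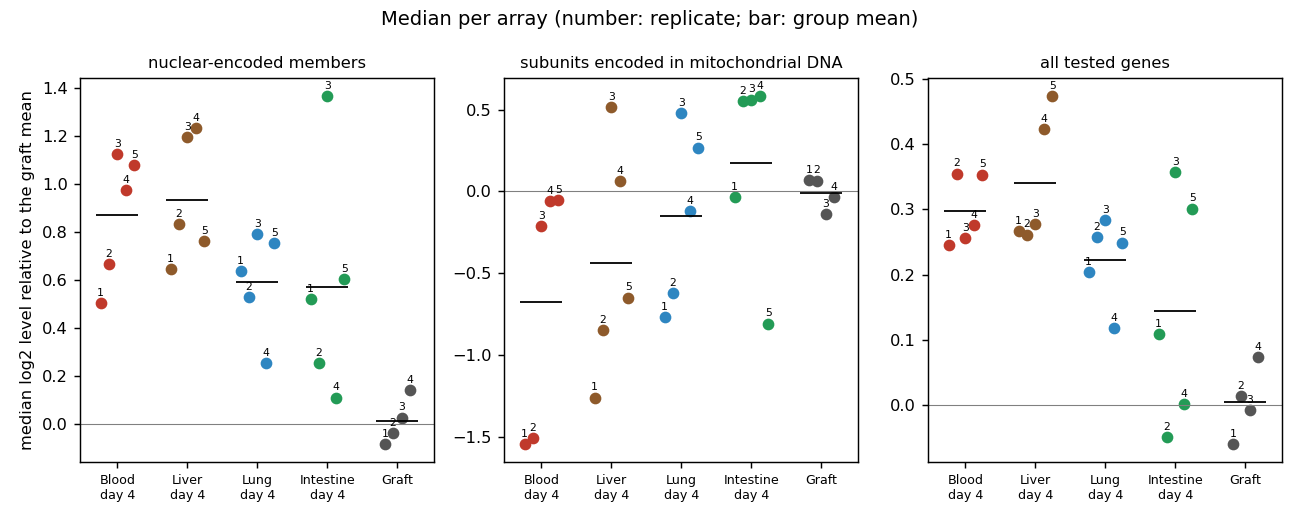
Each point is an array, numbered by replicate, and the bar is the mean of its group. The vertical axes give the median log2 level relative to the mean of the graft over the 90 nuclear-encoded members, the 13 subunits encoded in mitochondrial DNA and all tested genes. The nuclear members lie above 3 of the 4 graft arrays on every day 4 array and above the highest graft array on all but intestine 4, while the mitochondrial subunits fall on both sides of the graft.

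The subunits encoded in mitochondrial DNA, all 13 of which were tested, had a median difference of -0.23 in the mean of the 4 sites, where all genes had 0.23. Of the 13, limma called 2 lower and none higher, where 19.1% of all genes were called lower and 34.3% higher. The share called lower does not exceed that of all genes, so that count is no result about the list. Over the 6 scalings their median ran from -0.77 to -0.08. With both scalings on detected probes 5 were called lower, and with normexp, with quantile normalisation and with the deposited table the calls were 1 higher and 2 lower. ND6, a complex I subunit read from the light strand, stood at -0.08, 1.58 and 3.33 on day 4 arrays and at 4.29, 4.18, 4.99 and 3.97 on graft arrays. It fell by 2.85 without overlap (SE 0.39, adjusted p = 2.4e-06). ND3, also of complex I, fell by 1.41 (SE 0.39, adjusted p = 0.00435), with 17 of 20 day 4 arrays below every graft array. COX1, the catalytic subunit of complex IV, and CYTB of complex III had differences of 0.13 and 0.04, neither called. ND3 was also higher in intestine than in blood, by 1.39 (adjusted p = 0.0457), on 4 of 5 slides, and the other 12 had positive differences that were not called. Within the 5 slides, the median of the 13 in intestine minus blood was 1.05, 1.89, 1.00, 0.77 and -0.77. The median of the 13 lay lowest in blood 1 and blood 2, at -1.55 and -1.51 relative to the graft, and at 0.55, 0.56 and 0.58 in intestine 2, 3 and 4.

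Genes that build or control the chain outside the name rule were looked at next. Among 20 tested assembly genes of complexes III, IV and V, 8 rose and 2 fell, with a median of 0.27, which is near the 34.3%, 19.1% and 0.23 of all genes and no result about the list. Cox19, a copper protein of complex IV assembly, passed the test as higher (adjusted p = 3.14e-07), with 20 of 20 day 4 arrays and 1 of 4 graft arrays above background. Its difference of 2.71 therefore rests mostly on graft signals at background, as do those given below for Acad9 and Polg2. Atpaf2, a chaperone of the F1 head, rose by 1.89 (adjusted p = 5.52e-06) and Uqcc2, which acts on cytochrome b, by 1.76 (adjusted p = 6.21e-06). Atpaf2 was highest on liver 5, lung 4 and intestine 4, as was Cox7a1. Cox14, needed for the first steps with COX1, stood at 2.11, 2.85 and 3.61 on day 4 arrays and at 4.63, 4.63, 5.16 and 4.69 on graft arrays, and fell by 1.94 without overlap (adjusted p = 5.66e-08). Lyrm7 was above background on 3 of 4 graft arrays and on no day 4 array, at least 1.46-fold lower on day 4 (adjusted p = 0.000416).

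Of 5 further complex I assembly genes that were tested, 3 were called higher and 2 lower. All 3 entered the test only through day 4 groups, so that the count of rises is in part fixed by the filter. Acad9, which doubles as an acyl-CoA dehydrogenase, differed by 2.96 (adjusted p = 6.16e-07, 1 of 4 graft arrays above background). Nubpl, which delivers iron-sulfur clusters, and Foxred1 were above background on no graft array and were at least 1.73-fold and at least 2.19-fold higher on day 4 (adjusted p = 2.94e-05 and 0.00238). Ecsit differed by -0.57 (adjusted p = 0.0173) and lost its call without graft 3 or graft 4.

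Of 14 tested genes of mitochondrial transcription and its nuclear regulators 7 were called higher and none lower, where 34.3% and 19.1% of all genes were. Of the 7, Esrra, Polg2 and Tfb1m entered the test only through day 4 groups. In lung minus graft alone 4 of the 14 were called higher and 1 lower (25.8% and 11.6% of all genes). Gabpb1, which pairs with the ETS factor Gabpa to bind respiratory chain promoters, stood at 1.27, 2.72 and 3.93 on day 4 arrays and at -0.36, 0.33, -0.63 and 0.26 on graft arrays, a difference of 2.76 ± 0.32 (adjusted p = 2.17e-07). Esrra, an orphan nuclear receptor of the same genes, was at background on all graft arrays and at least 1.45-fold higher on day 4 (adjusted p = 0.000126). Polg2, the accessory subunit of the mitochondrial DNA polymerase, differed by 3.06 (adjusted p = 0.000204, 1 of 4 graft arrays above background). Tfb1m, a methyltransferase of mitochondrial ribosomal RNA, passed the test (adjusted p = 0.00409) but was above background on 10 of 20 day 4 arrays and on no graft array, and no fold is given. Gabpa, above background on 13 of 20 day 4 arrays and on no graft array, was not called by limma (adjusted p = 0.153). Ppargc1a and Ppargc1b were above background on no array. Atpif1, the inhibitor of ATP synthase, stood at 5.28, 5.65 and 6.06 on day 4 arrays and at 3.98, 3.96, 3.45 and 4.03 on graft arrays, and rose by 1.80 ± 0.17 (adjusted p = 1.98e-08). Slc25a5, an ADP/ATP carrier, rose by 2.46 (adjusted p = 3.04e-05), while Slc25a4, its heart and muscle relative, had a difference of 0.01 (adjusted p = 0.978).

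The promoters of all members with one, whether they changed or not, were searched for short sequence cores in RefSeq windows on GRCm38.p6 of 250 bases before and 50 after each start, on both strands. For 79 member genes 85 windows were found. The NRF1 core GCATGCG, the motif of a factor known to drive respiratory genes, was in 16.5% of member windows, in 5.97% of the windows of tested genes and in 3.58% of all 32851 windows. The ETS core CCGGAAG was in 22.4%, 17.5% and 8.86% of them, and the YY1 core AAGATGG in 15.3%, 7.26% and 6.34%. The windows of Cycs (GRCm38.p6 chr6:50566520-50566819, minus strand) and Uqcrc1 (chr9:108936398-108936697, plus strand) are shown because both genes rose without overlap and both hold the NRF1 core, read on either strand in the capitals. In Cycs the core begins 61 bases before the start and in Uqcrc1 32 bases after it. A core is a description of letters and not a bound site.
Cycs: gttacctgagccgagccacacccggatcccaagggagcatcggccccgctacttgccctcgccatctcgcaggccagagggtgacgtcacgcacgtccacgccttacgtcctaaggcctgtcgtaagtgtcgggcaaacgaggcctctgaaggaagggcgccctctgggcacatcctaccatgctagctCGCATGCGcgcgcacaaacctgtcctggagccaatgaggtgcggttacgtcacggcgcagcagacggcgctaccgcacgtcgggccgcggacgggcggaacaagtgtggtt
Uqcrc1: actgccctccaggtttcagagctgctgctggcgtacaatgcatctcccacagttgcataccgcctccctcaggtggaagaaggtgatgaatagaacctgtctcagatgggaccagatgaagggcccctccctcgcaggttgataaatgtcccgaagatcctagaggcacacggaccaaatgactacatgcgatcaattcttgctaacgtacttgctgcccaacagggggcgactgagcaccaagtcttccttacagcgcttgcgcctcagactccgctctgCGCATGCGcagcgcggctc

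**Figure D5:**
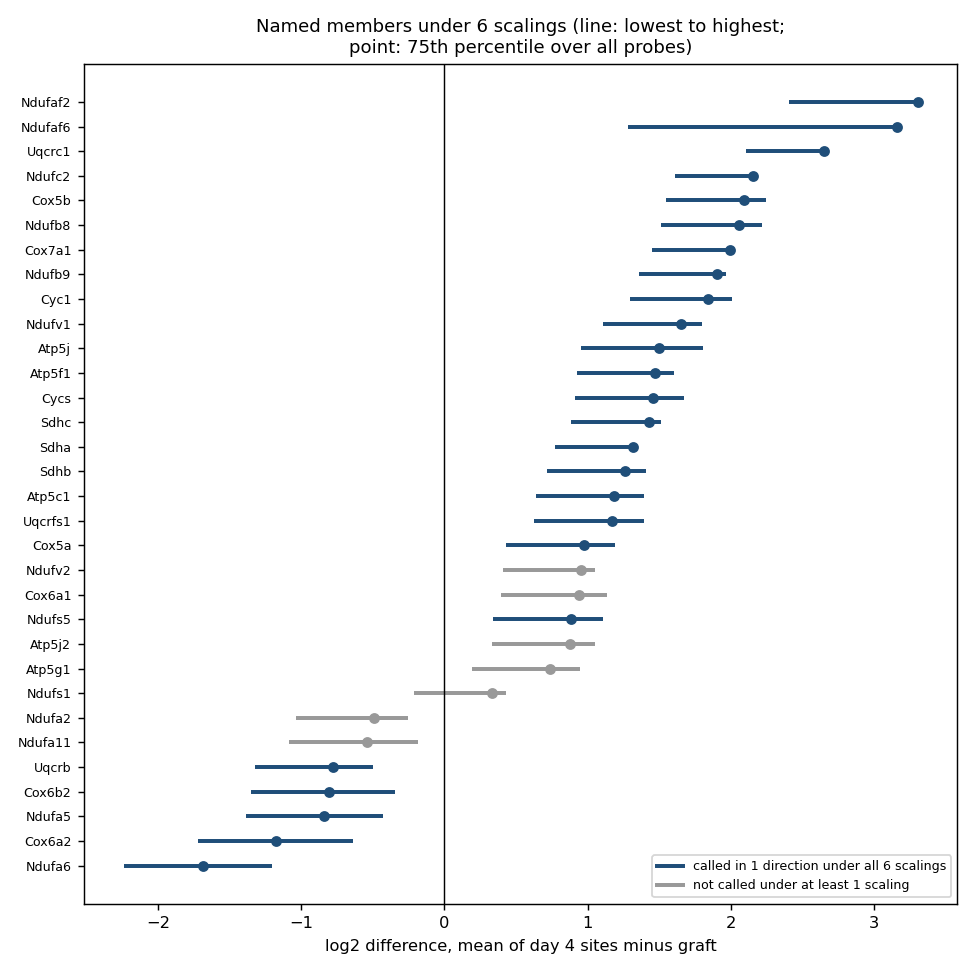
For each member shown the line spans the lowest to the highest log2 difference, mean of the 4 day 4 sites minus graft, over 6 scalings of the arrays, and the point is the value with the 75th percentile of all probes. Dark lines were called in 1 direction under all 6, such as Uqcrc1 and Ndufb8 above 0 and Ndufa6, Ndufa5 and Uqcrb below it. Ndufs1 is the member shown whose line crosses 0.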

How the data were processed

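RNA was measured on 24 one-colour Agilent arrays with mm9 probe positions. Per the file headers the deposited intensity is Agilent's processed signal from Feature Extraction 9.5.1.1 (10.7 per the submitters' processing notes), and the deposited log2 table holds the authors' values of the same arrays. Here each array's log2 processed intensities were shifted so that the 75th percentile of its gene probes lay at 0. Non-uniform spots were left out and repeated probes averaged. A gene was represented by its tested probe of highest mean. Probe names came through RefSeq accessions for 27597 probes. Then limma 3.58.1 in R 4.3.3 fitted 1 mean per group over all 24 arrays, with Benjamini-Hochberg adjustment over 9448 genes, and was tested on simulated data. Alternatives were other background corrections and scalings, filters, probe rules, blocks, array weights and each array left out. The number of arrays limits the precision. Genes named are, by smallest adjusted p, up to 3 called higher and 2 called lower per complex, 2 assembly factors, 2 isoforms, 2 per direction and pair of sites, 4 with opposed probes and 4 per list of other genes. Isoform pairs of complex IV were also named. Sdhd, Atp5c1-ps, Sdhaf2, Lyrm7, COX1, CYTB, Slc25a4, Cox7a2l, Ndufa10 and Ndufaf7 were named after their values were seen. So were Nrf1, Ttc19, Pprc1, Timmdc1, Gabpa, Ppargc1a and Ppargc1b. The members and lists were chosen with earlier results of these data known. Slides 1 to 5 each hold 1 array of every day 4 site, with the same replicate number. The values of 1 member are not reported here. It is counted with its complex and left out of the plots of single genes.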

Additional observations from a re-analysis of the deposited data

Results flagged for a closer look

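A single array stood apart from the others of its group, by Dixon's test, in 15 of 245 groups of arrays tested, and chance flags about 1 in 20 groups. Intestine 3 was high for Ndufb8 (6.22, others 5.02 to 5.27), Cox6a1 (7.47, others 6.34 to 6.43) and Atpif1 (6.06, others 5.28 to 5.36), intestine 5 was high for Cyc1 (4.61, others 4.02 to 4.16), and intestine 2 was low for Ecsit (3.03, others 3.33 to 3.44). Lung 4 was low for Ndufa5 (4.11, others 4.55 to 4.71) and Atp5j (4.81, others 5.60 to 5.65), and lung 5 for Foxred1 (-2.06, others -0.08 to 0.70). In liver, array 5 was low for Cyc1 (4.21, others 4.77 to 4.99) and array 3 high for Cox6a2 (2.01, others -0.27 to 0.15). Graft 3 was low for Ndufb9 (4.12, others 4.39 to 4.44) and Atpif1 (3.45, others 3.96 to 4.03) and high for Cox14 (5.16, others 4.63 to 4.69) and Esrra (-1.43, others -2.73 to -2.56, all at background), and graft 1 was low for Cycs (4.82, others 5.20 to 5.26).

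Between sites, limma's test of intestine minus blood passed for Ndufaf2 (-0.85), Ndufs1 (-1.19), Ndufs5 (-0.58) and ND3 (1.39).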

How the results depend on the processing

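Of 49 results on named genes, 40 kept their direction and their side of the threshold under all 37 or 38 alternatives each. Ndufs1, not called against the graft, turned to -0.20 with quantile normalisation, -0.080 with the 75th percentile of detected probes, -0.21 with their median and -0.20 with the deposited table. Against the graft, called members moved by over 1.5 times in liver to 40 (75th percentile of detected probes) and in intestine to 29 (only the groups compared). With 1 array left out, they were 53 to 64 in the mean of the sites, 56 to 64 in blood, 56 to 67 in liver, 35 to 52 in lung and 32 to 50 in intestine.

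Between sites the counts were less stable. Intestine minus blood, with 3, gave 0 with the 75th percentile of detected probes and with only the groups compared, 1 with the median of detected probes, without a filter, and without lung 4 and intestine 4, and 5 with the mean of the probes. It gave 5 with a replicate block, 8 with slide as a random block, 29 with array weights, and 0 to 23 with 1 array left out. Lung minus blood gave 1 with normexp or a random slide block, 5 with array weights, and 0 to 7 with 1 array left out (7 without lung 1). Lung minus liver gave 5 with array weights and 0 to 1 with 1 array left out. Intestine minus liver gave 22 with array weights and 0 to 5 with 1 array left out (5 without intestine 3), and intestine minus lung gave 1 with array weights and 1 with the median of detected probes. The causes were not tested.

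The replicate number marks the slide among day 4 arrays. Deviations of same-numbered day 4 arrays correlated at -0.37 to 0.56 (median 0.15 over 30 pairs), so that not every pair exceeded 0.1. With the replicate block 66 members were called in the mean of the sites.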
